A study of Mus musculus with 28 samples.

Results

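Cytosolic ribosomal proteins are the protein parts of the 2 subunits of the ribosome that translates nuclear-encoded mRNA. Their genes were taken by name from the mm9 gene annotation (GENCODE vM1): autosomal protein-coding genes called Rpl or Rps with a number, together with Rplp0, Rplp1, Rplp2 and Rpsa. Rps6k kinase genes and processed copies named with -ps were left out. This gave 81 of 21418 autosomal protein-coding genes. They comprise 42 genes of the large subunit, 30 of the small subunit, 8 paralogs and Rps19bp1, which encodes a protein that binds Rps19 and is not itself ribosomal. The 72 subunit genes are called core genes here.

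The cells were HATX mouse embryonic stem cells (mESCs), a haploid line with a doxycycline-inducible Xist transgene, either wild type (WT) or lacking the Spen gene (Spen KO, clone 2), grown in serum with LIF. Both genotypes carry the transgene, and the Spen KO data come from 1 clone, so the clone and the deletion cannot be told apart. ChIP-seq libraries were made with 4 antibodies, against H3K4me3, H3K27Ac, H3K9me3 and Oct4, 2 libraries per genotype for each. The study calls the histone libraries technical replicates, and nothing used here says that the Oct4 libraries came from separate cultures. For H3K4me3 and H3K27Ac there is 1 peak list per genotype, which keeps peaks that both libraries ranked reproducibly, whereas each Oct4 library has its own list.

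Ribosomal protein genes are expressed in every growing cell and at high levels in stem cells. Their mRNAs begin with a C and a run of pyrimidines, the 5′ terminal oligopyrimidine (TOP) tract, through which mTOR signalling controls their translation. H3K4me3 marks the start region of active and poised genes, H3K27Ac marks active promoters and enhancers, and H3K9me3 marks silenced chromatin. Oct4, encoded by Pou5f1, is a transcription factor that binds an octamer motif and maintains pluripotency. Spen is a corepressor that binds histone deacetylase complexes.

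The cell type labels were checked on marker promoters. H3K27Ac lay at 9 of 10 embryonic stem cell marker genes in each genotype, all but Esrrb, and at 0 of the 15 endoderm, mesoderm, neural, trophoblast and fibroblast markers measured. The H3K4me3 lists held 34823 peaks in WT and 31091 in Spen KO, the H3K27Ac lists 13922 and 11932, and the Oct4 lists between 1806 and 4111. Library depth is unknown. Intervals on shares are 95% Wilson intervals and cover counting error only. Intervals on medians are 95% order-statistic intervals over genes of the same lists, and hold no error between libraries or clones.

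The promoters were searched for short motifs. In the 300 bp from 250 bases before to 50 after the annotated start, the ETS core CCGGAA on either strand occurred in 34 of 81 genes (42.0%), against 17.7% of all autosomal protein-coding genes and 32.3% of promoters with both H3K4me3 and H3K27Ac in WT. CTTTCC occurred in 34.6% of the genes (26.2% of all, 25.9% of promoters with both marks). The YY1 core AAGATGG occurred in 11.1% (6.75% of all), close to the 9.55% of promoters with both marks. Mitochondrial ribosomal protein genes had higher shares of all 3, with 51.9% for the ETS core, 39.0% for CTTTCC and 18.2% for the YY1 core, so these motifs were not particular to the cytosolic genes. The Sp core GGGCGG occurred in 46.9%, near the 43.7% of all genes and below the 64.2% of promoters marked by H3K4me3. TATAAA was found in 11.1%, against 13.5% of all genes and 6.89% of marked promoters. The windows held a median of 19 CpG, against 12 in all genes and 20 in marked promoters.

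A start-site tract, a C followed by at least 4 pyrimidines within 5 bases of the annotated start, was found in 17 of 81 genes (21.0%), against 18.4% of all genes. These shares are close, and the annotated starts are ends of gene records rather than measured cap sites. To show the tract where the annotation meets it and where it does not, 5 starts follow, each with 15 bases on either side of the boundary before the first annotated base, 5′ to 3′ on the sense strand of mm9, with the tract in capitals. They are Rplp1 (chr9:61762331-61762360, minus strand) of the ribosomal stalk, Rps27 (chr3:90017559-90017588, minus) with its paralog Rps27l (chr9:66793878-66793907, plus), Rpsa (chr9:120036869-120036898, plus) and Rpl5 (chr5:108329506-108329535, plus), of which the last 2 had no tract by the rule.
Rplp1: caggcgtatatgatCTTTTCCTCagctgcc
Rps27: aggatttccgctttcgCTCCTTTCCggcgg
Rps27l: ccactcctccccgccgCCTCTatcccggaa
Rpsa: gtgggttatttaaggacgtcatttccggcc
Rpl5: gcatcttgaggcctacagccactctttctc

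H3K4me3 covered nearly every ribosomal protein promoter, in unusually wide peaks. A promoter was taken as marked when a peak touched the 1000 bp on either side of the gene start. By this rule 80 of 81 genes were marked in WT (98.8%, interval 93.3 to 99.8) and 79 in Spen KO (97.5%, interval 91.4 to 99.3), against 64% and 62.3% of all autosomal protein-coding genes. All 72 core genes were marked in both genotypes. The 2 genes that lacked the mark in a genotype were paralogs: Rpl39l, a copy of Rpl39 known from testis, had no peak in either list, and Rpl10l, another testis-expressed copy, had a WT peak of 956 bp and none in Spen KO.

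The median width of the widest promoter peak was 4674 bp in WT (95% order-statistic interval 4143 to 4956, n = 80), against 2747 bp over all marked promoters. In Spen KO it was 4048 bp (interval 3683 to 4417, n = 79), against 2110 bp. Mitochondrial ribosomal protein genes, which encode the ribosome of another compartment and are marked about as often (75 of 77 in WT), had medians of 3293 bp and 2394 bp. The ribosomal protein peaks lay at a median percentile of 95.8 by width among all WT peaks and 96.3 among all Spen KO peaks. Promoter peaks as a whole were wide, and among them alone the median percentiles were 87.9 and 91.0. In the widest 5% of the list were 42 of the WT peaks (52.5%, against 14.2% of all promoter peaks) and 48 of the Spen KO peaks (60.8%, against 12.1%). By score the median percentiles were 95.1 and 91.6, against 79.4 and 77.0 over all promoter peaks. Ribosome biogenesis genes, whose WT median was 4546 bp and Spen KO median 4064 bp (n = 19), had widths near those of the ribosomal protein genes, and genes of translation factors and other TOP mRNAs had 5306 bp and 5900 bp (n = 15).

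**Figure D1:**
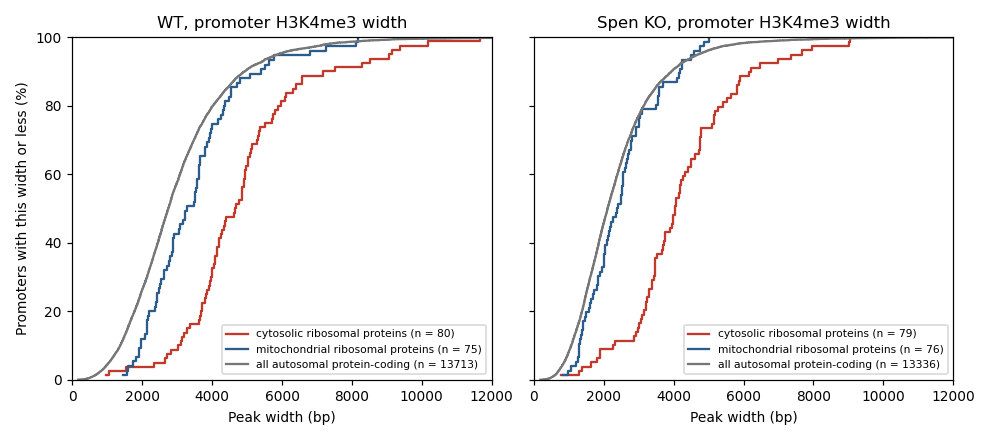
Cumulative share of promoters by H3K4me3 peak width in bp, WT on the left and Spen KO on the right, for cytosolic ribosomal protein genes (red), mitochondrial ribosomal protein genes (blue) and all autosomal protein-coding genes with a peak (grey). Above the narrowest few peaks the red curve lies to the right of the others in both genotypes, with medians of 4674 and 4048 bp.

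Among the widest WT peaks were those of Rpl7a (11654 bp, rank 26 of 34823 peaks), Rps28 (10166 bp, rank 43), Rpl23a (9156 bp, rank 69) and Rpl35 (9048 bp, rank 78), all core subunit proteins. In all 4 the peak came within 1000 bp of the start of another gene. The Rpl7a peak (chr2:26763049-26774702, with the gene at chr2:26766284-26768838) reached the starts of Med22, Surf1 and Surf2, that of Rps28 reached Ndufa7, that of Rpl23a Nek8 and Tlcd1, and that of Rpl35 Arpc5l.

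Peaks near no other gene start were wide too. The 21 ribosomal protein peaks near another gene start had a WT median of 5744 bp, and the 59 that were near no other start had 4293 bp, against 2554 bp for all promoter peaks near no other start. The narrowest WT peaks were those of Rpl10l (956 bp), the muscle paralog Rpl3l (1045 bp), Rpl13a (1540 bp), Rps23 (2341 bp) and Rps27l (2645 bp). Of these only Rpl13a and Rps23 are core genes. The gene record of Rpl13a starts 7680 bp before its most downstream protein-coding transcript start.

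The peaks extended into the gene, with exceptions such as Rpl36, whose widest WT peak ended 264 bp before the start. That peak was 1 of 2 WT peaks in the Rpl36 window and lay near the start of 2410015M20Rik. The Spen KO peak of Rpl36 reached 2513 bp past the start. Over the 80 genes the WT peaks reached a median of 3494 bp downstream of the start and 1072.5 bp upstream, against 1811 and 818 bp over all marked promoters. Ribosomal protein genes are short, with a median length of 3368 bp against 15535 bp for all autosomal protein-coding genes. The WT peak covered a median of 97.2% of the gene, and 38 of 80 genes (47.5%) lay wholly inside it, against 7.71% and 4.75% over all marked promoters. Among 2261 promoters with WT widths between the quartiles of the ribosomal protein genes, the median cover was 15.6% and 7.96% of the genes lay wholly inside their peak.

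**Figure D2:**
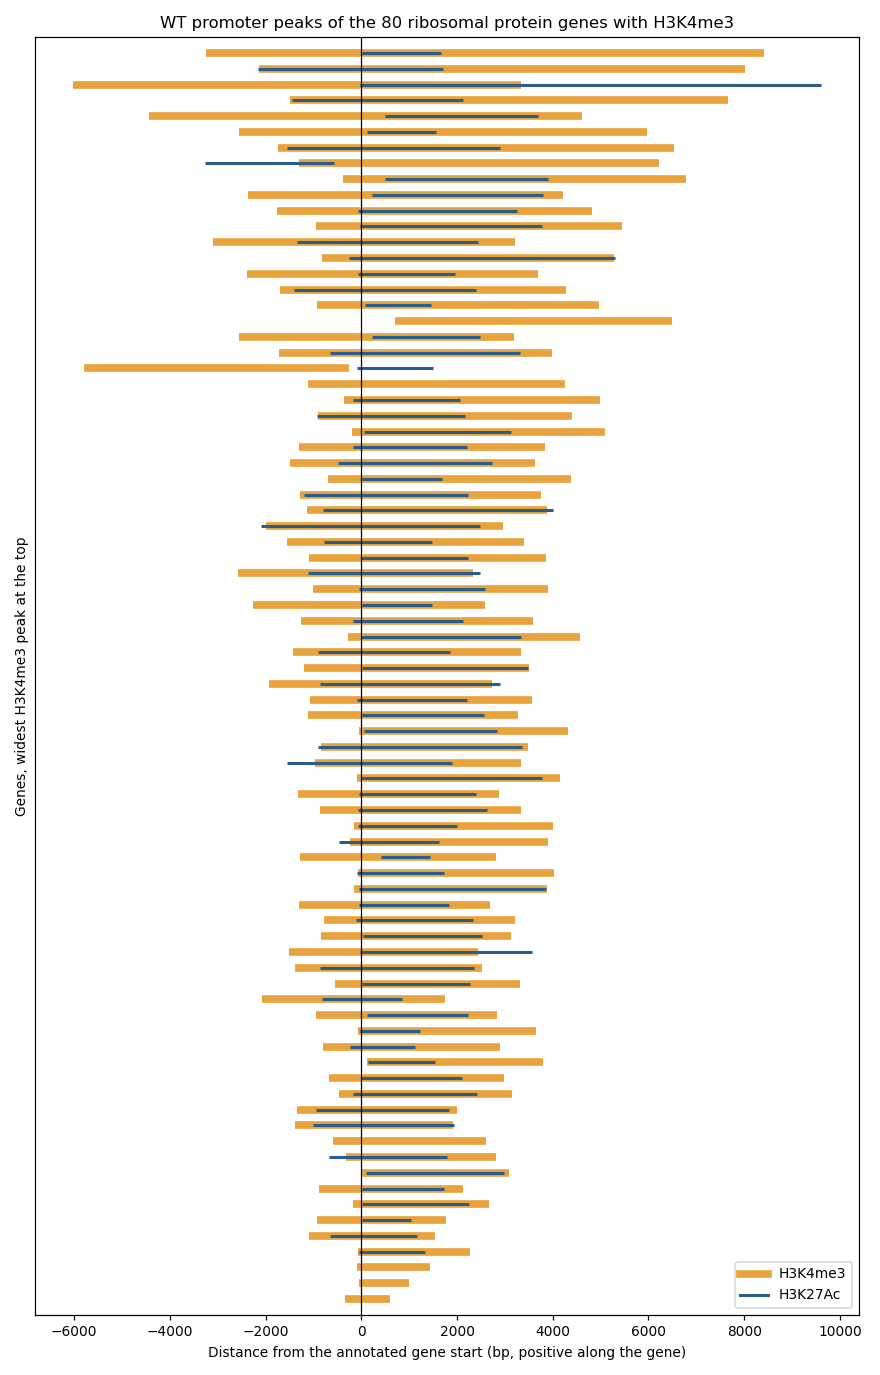
Extent of the WT H3K4me3 (orange) and H3K27Ac (blue) promoter peaks of the 80 ribosomal protein genes with H3K4me3, in bp from the annotated gene start with positive values along the gene, 1 row per gene, sorted by H3K4me3 width with the widest at the top. Most orange bars extend further to the right of the start than to the left, and blue bars are absent where no WT H3K27Ac peak touched the window.

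By role, the proteins of the ribosomal stalk, which recruits translation factors with GTPase activity, had similar widths. Rplp0 had a WT width of 4143 bp and a Spen KO width of 4048 bp, Rplp1 3987 and 3240 bp, and Rplp2 3985 and 3970 bp. Rpsa, the small subunit protein also known as the laminin receptor, had 4040 and 3946 bp, and Rps6, the substrate of S6 kinase, 4859 and 4214 bp. All 5 were narrower in Spen KO, none of them by 1.5-fold.

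Rpl11, which with Rpl5 and 5S rRNA binds Mdm2, went from 4843 bp in WT to 3441 bp in Spen KO. Rps19, the gene most often mutated in Diamond-Blackfan anaemia, had 6103 and 6149 bp. Rpl38, required for translation of Hox mRNAs, had 4252 and 3677 bp, and Rps27a, which encodes a fusion of ubiquitin to a small subunit protein, had 3356 and 2927 bp. Of the 4 paralogs with an autosomal partner, 3 were narrower than it in WT. Rpl22l1 had 2702 bp beside 8285 bp for Rpl22, Rps27l had 2645 bp beside 5150 bp for Rps27, and Rpl3l had 1045 bp beside 6391 bp for Rpl3. Rpl7l1 was wider, with 5360 bp beside 3678 bp for Rpl7. For Rps19bp1 the widths were 3191 bp (WT) and 3081 bp (Spen KO).

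H3K4me3 widths were compared between the genotypes to ask whether loss of Spen alters these promoters. There is 1 list per genotype, so the comparison has no replicate check and no test. Of 79 genes with a peak in both lists, 60 were narrower in Spen KO (75.9%, against 89.4% of all promoters) and 19 wider. The median log2 ratio of Spen KO over WT was -0.18 (order-statistic interval -0.24 to -0.06), a smaller drop than the -0.31 over all 13240 promoters, the -0.41 of the mitochondrial ribosomal protein genes, and the -0.37 of promoters with WT widths between the quartiles of the ribosomal protein genes. Relative to the median of all promoters, the ribosomal protein median was thus 0.13 higher, and the direction of their change depends on whether that general narrowing is subtracted.

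In Spen KO, 11 of the 79 genes were narrower by at least 1.5-fold (13.9%, background 24.9%) and 1 was wider by that much (1.27%, background 0.755%). Among the largest falls were those of Rpl24, from 5883 to 1879 bp (log2 -1.65), Rps28, from 10166 to 4790 bp (-1.09), Rpl5, from 3724 to 1797 bp (-1.05), and Rpl22, from 8285 to 4510 bp (-0.88). The largest rises were those of Rpl27a, from 3292 to 5258 bp (log2 0.68), Rpl6, from 4375 to 5526 bp (0.34), Rpl32, from 4140 to 5098 bp (0.30), Rpl4, from 6307 to 7677 bp (0.28), and Rps18, from 6574 to 7971 bp (0.28).

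Several of the falls were peaks that the Spen KO list holds in pieces. In 8 of the 11 narrower genes, 2 or more Spen KO peaks lay on the WT peak, against 16 of all 79 genes and 11.6% of all promoters. The 11 were picked by the width of their widest peak, which favours split Spen KO peaks, and other narrower promoters were not counted. Added up, the Spen KO peaks covered at least 80% of the WT peak in 6 of the 11 genes. The same held for 65 of all 79 genes and 7413 of all 13240 promoters. Among the 6 genes the cover was 97.7% for Rpl5, 97.1% for Rpl22 and 95.2% for Rpl7a. In the other 5 genes less was covered, with 53.1% for Rpl24, 54.6% for Rps29, 57.0% for Rps23, 60.9% for Rpl21 and 75.2% for Rps28. Over the 79 genes a median of 92.6% of the WT peak was covered in Spen KO, against 82.6% over all promoters.

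When peaks within 1000 bp of each other were merged first, 11 genes were again narrower by 1.5-fold (24.4% of all promoters), but 5 of them were shared with the 11 above: Rpl21, Rpl24, Rps23, Rps28 and Rps29. After merging, Rpl5 was wider in Spen KO (log2 0.53), and the rise of Rpl27a was gone (log2 -0.03, with 5361 and 5258 bp). The fall of Rpl24 remained in both (log2 -0.83 after merging). Its WT peak (chr16:55965464-55971346) begins 924 bp before the annotated start and reaches 4958 bp past it, and the widest Spen KO peak (chr16:55966190-55968068) reaches 1680 bp past it.

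**Figure D3:**
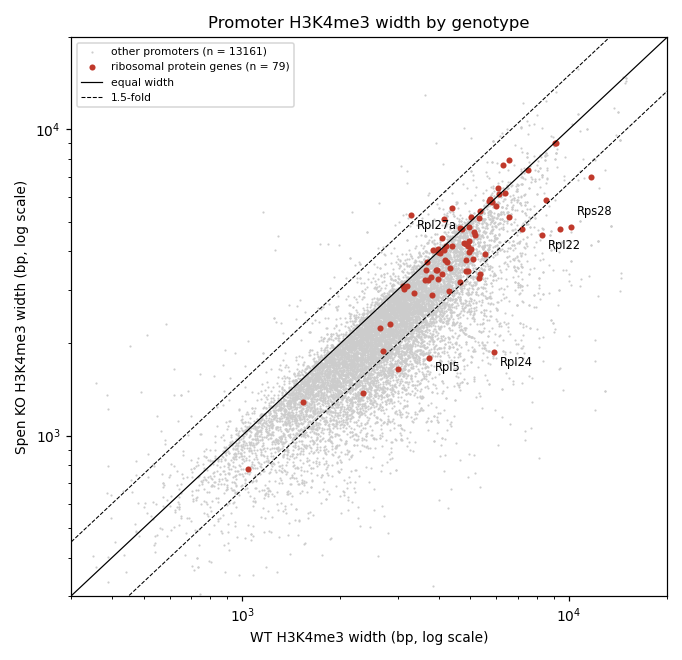
H3K4me3 promoter width in WT (x) and Spen KO (y), in bp on log axes, for 79 ribosomal protein genes (red) and other autosomal protein-coding promoters with a peak in both lists (grey). The solid line is equal width and the dashed lines are 1.5-fold, beyond which 11 red points fall below and 1, Rpl27a, above.

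Peak strength was compared through the scores of the 2 libraries of each genotype, each turned into a percentile among promoters with a peak in both lists. Both H3K4me3 scores were above both of the other genotype in WT for 23 of 79 genes (29.1%, background 20.6%) and in Spen KO for 11 (13.9%, background 18.3%). The median percentiles of the ribosomal protein genes were 85.2 and 84.5 for the WT libraries, with 80.05 and 62.2 for Spen KO, so 1 Spen KO library lay well below the other 3. Across the genes, the scores of the libraries of 1 genotype had a Spearman correlation of 0.30 in WT (n = 80) and 0.39 in Spen KO (n = 79), a description over genes that share the same libraries. For Rps19 the percentiles were 92.0 and 60.0 in the WT libraries, below the 99.7 and 99.6 of Spen KO, so the genotypes did not overlap.

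H3K27Ac lay at most ribosomal protein promoters and at a minority of others. It was found at 74 of 81 promoters in each genotype (91.4%, interval 83.2 to 95.8), against 18.8% of all genes in WT and 20.1% in Spen KO, 29.0% and 31.0% of promoters with H3K4me3 in WT, and 35 of 77 mitochondrial ribosomal protein genes (45.5%) in both. Among the 2261 promoters of like H3K4me3 width it lay at 56.2% in WT and 57.7% in Spen KO. The translation factor genes carried it at 11 of 15 promoters in WT and 15 of 15 in Spen KO, and the ribosome biogenesis genes at 14 and 17 of 20.

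**Figure D4:**
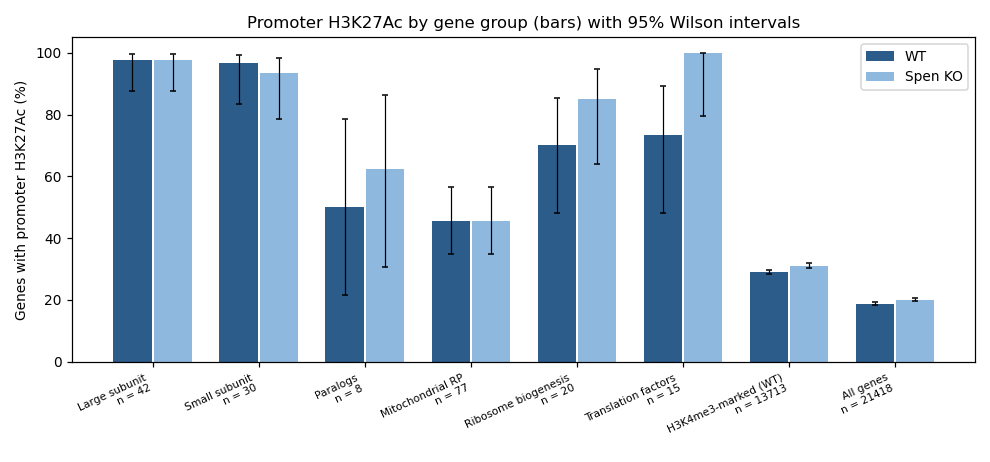
Share of genes in percent with an H3K27Ac peak within 1000 bp of the start, WT in dark and Spen KO in light blue, by gene group, with 95% Wilson intervals as error bars. Large and small subunit genes stand at 93.3% or more in both genotypes, and all autosomal protein-coding genes at 18.8% and 20.1%.

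The acetylated region lay mostly downstream of the start. It included the start itself in 50 of 74 genes in WT and 54 of 74 in Spen KO. Its median width was 2619 bp in WT (interval 2292 to 3075, n = 74) and 2211.5 bp in Spen KO (interval 2071 to 2586), against 1227 and 1041.5 bp over all promoters with the mark. In WT it reached a median of 68.5 bp upstream and 2236 bp downstream, against 215 and 885 bp over all such promoters. Across 74 genes the WT widths of H3K4me3 and H3K27Ac had a Spearman correlation of 0.41, as a description.

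Among the highest WT H3K27Ac scores, as the mean of both libraries before conversion to percentiles, were those of Rpl17 (library values 69.1 and 34.6), Rpl3 (55.8 and 47.7), Rps18 (62.0 and 41.2) and Rps6 (50.0 and 49.5). In Spen KO their library values were 34.9 and 28.8 for Rpl17, 62.3 and 42.4 for Rpl3, 45.7 and 28.0 for Rps18, and 37.1 and 41.1 for Rps6. As scores, the Spen KO values lay below both WT values in Rps6, and the genotypes overlapped in the other 3. As percentiles, both WT libraries were above both Spen KO libraries in all 4 genes, with 99.5 and 93.0 against 78.2 and 66.7 for Rpl17 and 97.5 and 98.8 against 97.2 and 88.6 for Rpl3. For Rps18 they were 98.8 and 97.3 against 90.7 and 63.9, and for Rps6 96.0 and 99.1 against 81.7 and 87.8. These genes were chosen for high WT scores, so a lower Spen KO value is no independent result.

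Most genes kept H3K27Ac in both genotypes. Of 75 genes with it in at least 1 genotype, 1 had it in WT alone and 1 in Spen KO alone, against 30% of all promoters with it in at least 1 genotype. The WT-only gene was Rps2, a small subunit protein, with a peak of 3403 bp and library scores of 20.9 and 22.7. The Spen KO-only gene was the paralog Rpl7l1, with a peak of 1263 bp and scores of 13.5 and 17.1. With all transcript starts or a 2500 bp window, Rps2 had H3K27Ac in Spen KO too, at 1105 bp with all transcript starts.

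The 6 genes with H3K27Ac in neither list were the paralogs Rpl10l, Rpl39l and Rpl3l, the binding protein gene Rps19bp1, and the core genes Rpl13a and Rps10. The last 2 have gene records that start 7680 and 1389 bp before their most downstream transcript start. With all transcript starts allowed, both were acetylated in both genotypes. The count was then 76 in WT and, with Rps2, 77 in Spen KO, against 19.9% and 21.1% of all genes under the same rule. Every core gene then had H3K27Ac in both genotypes.

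In the 73 genes with H3K27Ac in both lists, the median log2 ratio of widths was -0.09 (interval -0.21 to -0.02), against -0.06 over all 3433 promoters. By 1.5-fold, 11 were narrower in Spen KO (15.1%, background 18.3%) and 3 wider (4.11%, background 11.7%). The narrowest relative to WT was Rps9, from 4263 to 1405 bp (log2 -1.60), and the wider genes were Rplp1, from 1890 to 3161 bp, Rpl32, from 2092 to 3422 bp, and Rpl7, from 1410 to 2126 bp. These 4 were named after their values were seen. Both library percentiles were higher in WT for 20 genes (27.4%, background 21.6%) and in Spen KO for 12 (16.4%, background 21.1%). Rpl27a, with the largest rise of H3K4me3 width, had WT H3K27Ac percentiles of 99.5 and 76.3, both below its Spen KO percentiles of 99.6 and 99.8. Its other values went the other way. The H3K27Ac peak of Rpl27a was narrower in Spen KO, at 1906 bp against 2946 bp in WT. Its H3K4me3 percentiles were higher in WT, at 97.8 and 85.3 against 80.9 and 62.2 in Spen KO.

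Oct4 was examined in each library on its own, because the list of WT replicate 1 (WT R1) stands apart from the other 3. In WT R1, 68.5% of the 1806 peaks touched a promoter window, against 17.1% in WT R2, 22.5% in Spen KO R1 and 17.5% in Spen KO R2, and 80.2% of them lay on H3K4me3 peaks of the same genotype, against 38.6 to 46.2% in the others. Pou5f1 itself had an Oct4 peak in all 4 libraries, and of the 10 stem cell marker genes 2, 3, 6 and 4 had one, in the order given.

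Few ribosomal protein promoters carried Oct4. There were 8 of 81 in WT R1 (9.88%, interval 5.09 to 18.3), 1 in WT R2 (1.23%), 5 in Spen KO R1 (6.17%, interval 2.67 to 13.6) and 1 in Spen KO R2 (1.23%, interval 0.218 to 6.67). Over all genes the shares were 6.64%, 3.09%, 2.68% and 2.52%, and over promoters with H3K4me3 in WT they were 10.3%, 4.68%, 4% and 3.83%. The share in WT R1 was thus near that of marked promoters in the same library, and the interval of each library includes the share of marked promoters. Other comparison sets had higher shares. Promoters with both H3K4me3 and H3K27Ac in WT had 16.5%, 5.93%, 7.84% and 6.86%, and the 2261 promoters of like H3K4me3 width 17.1%, 6.24%, 6.10% and 5.88%. The WT R1 interval includes both shares, and the Spen KO R2 interval leaves out the 6.86%. Mitochondrial ribosomal protein genes had 8, 2, 1 and 1 of 77.

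**Figure D5:**
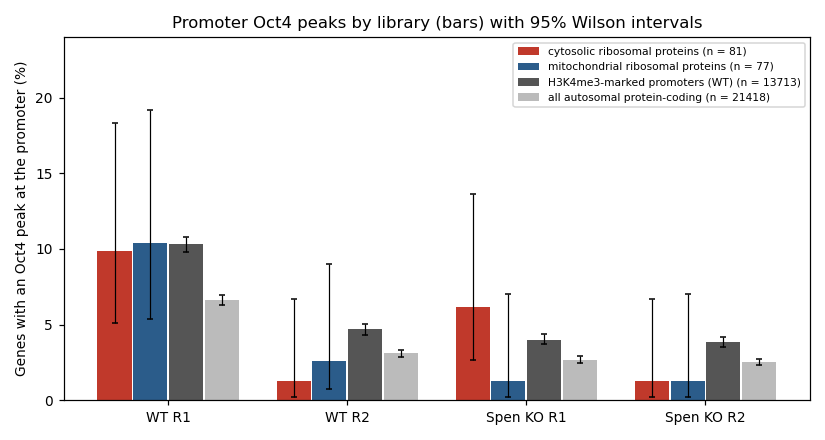
Share of genes in percent with an Oct4 peak within 1000 bp of the start, by library, for cytosolic (red) and mitochondrial (blue) ribosomal protein genes, promoters with H3K4me3 in WT (dark grey) and all autosomal protein-coding genes (light grey), with 95% Wilson intervals. WT R1 is highest in all 4 gene groups, with 9.88% of cytosolic ribosomal protein genes.

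The mean number of genes with Oct4 was 4.5 ± 4.95 in WT and 3 ± 2.83 in Spen KO (SD, n = 2 libraries each), a difference of -1.5 that is smaller than the spread within either genotype. With 2 libraries against 2, an exact two-sided permutation test cannot give a p below 0.333. Without WT R1 the difference was 2, and without Spen KO R2 it was 0.5, so its direction rests on single libraries. Ribosomal protein genes made up 0.563%, 0.151%, 0.870% and 0.185% of the promoters with Oct4 in the 4 libraries, around their 0.378% share of all genes.

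Among the WT R1 peaks of highest fold enrichment over input were those at Rpl15 (8.27-fold, summit 254 bp past the start), Rpl37 (8.27-fold, 150 bp before), Rplp0 (7.62-fold, 60 bp before) and Rps19 (6.74-fold, 6 bp past). The Rpl15 summit is 1 bp from the start of the neighbouring gene Nkiras1. Lower peaks were at Rps29 (5.97-fold), Rps21 (5.60-fold) and Rpl18 (5.59-fold), all below the list median of 6.55-fold. In the other libraries there were peaks at Rpl36 in WT R2 (6.89-fold), at Rpl23 (6.85-fold), Rpl13 (6.09-fold), Rps19 (6.07-fold) and Rpl4 (5.57-fold, nearer to the start of Zwilch) in Spen KO R1, and at Rpl37 in Spen KO R2 (5.32-fold).

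Hardly any of these peaks recurred. Of 81 genes, 13 had Oct4 in at least 1 library (16.05%, background 11.5%) and 2 in at least 2 (2.47%, background 2.38%). This left 6 of the 8 WT R1 genes without Oct4 in any other library. Over promoters with H3K4me3 in WT, the shares were 17.6% and 3.59%. Few promoters of the comparison sets recurred either, so the low recurrence was not particular to ribosomal protein genes. At Rpl37 the WT R1 peak (chr15:5066367-5066576) and the Spen KO R2 peak (chr15:5066344-5066467) overlapped. At Rps19 the WT R1 and Spen KO R1 peaks shared 0 bases, with summits 404 bp apart. Among the other translation genes, Mrpl47 had Oct4 in 3 libraries, all but WT R1, at up to 9.77-fold in Spen KO R1. Ncl, Pabpc1 and Rrs1 had it in 2 libraries each.

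The octamer ATTTGCAT, searched on both strands, was in 0 of the 81 promoter windows, which include the 13 genes with Oct4, against 1.73% of all genes and 1.29% of promoters with H3K4me3. This says only that those letters are not in this window. The window does not reach the only Oct4 summits at Rpl15, Rpl36, Rpl23, Rpl13 and Rpl4, or the Spen KO R1 summit at Rps19. Letters at these summits were not searched. For Rpl37 and Rplp0, which had strong WT R1 peaks with a summit before the start, the 200 bases before the start are shown, to let the letters under the peaks be read. They run 5′ to 3′ on the sense strand of mm9, with the CTTTCC, ETS, YY1, Sp and TATAAA letters searched above in capitals where they occur on either strand. The windows are chr15:5066413-5066612 (plus strand) for Rpl37 and chr5:116009276-116009475 (plus) for Rplp0.
Rpl37: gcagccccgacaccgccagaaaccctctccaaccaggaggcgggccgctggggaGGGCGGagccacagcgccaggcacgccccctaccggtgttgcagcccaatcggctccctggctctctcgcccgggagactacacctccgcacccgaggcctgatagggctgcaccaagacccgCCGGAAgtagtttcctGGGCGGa
Rplp0: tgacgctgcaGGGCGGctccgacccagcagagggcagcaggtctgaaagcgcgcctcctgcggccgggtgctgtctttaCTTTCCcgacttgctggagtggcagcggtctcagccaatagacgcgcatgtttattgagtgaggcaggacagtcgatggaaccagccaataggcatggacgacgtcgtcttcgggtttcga
The Sp core stood in both windows, and the ETS core in that of Rpl37.

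H3K9me3 touched 1 of the 81 promoters in each genotype, against 8.18% of all genes in WT and 7.84% in Spen KO. The gene was Rpl39l, the paralog without H3K4me3. Its domain was 10000 bp wide in WT (chr16:10163601-10173600) and 5600 bp in Spen KO (chr16:10167401-10173000). H3K9me3 domains at promoters were narrower in the Spen KO list as a whole, with a median of 6200 bp against 9000 bp in WT. By width among these promoter domains, the Rpl39l domain went from percentile 53.9 in WT to 45.5 in Spen KO. By score among all domains of its list it rose from percentile 47.3 to 85.2. Whether the domain itself differs between the genotypes was not tested.

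Genes of the same family outside the rule gave the following values. The 4 X-linked genes Rpl10, Rpl36a, Rpl39 and Rps4x all had H3K4me3 and H3K27Ac in both genotypes and no Oct4. Their H3K4me3 widths ranged from 2670 bp (Rpl10) to 4266 bp (Rps4x) in WT and from 1952 bp (Rpl36a) to 4284 bp (Rpl39) in Spen KO. The 55 autosomal copies named with -ps, which the annotation lists as protein-coding and which were looked at after the values of the other genes were known, had H3K4me3 at 7 promoters in WT and 3 in Spen KO, and H3K9me3 at 10 and 12. The widest H3K4me3 peak among them was that of Rpl30-ps6, with 1661 bp in WT.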

How the data were processed

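The members and the gene lists were chosen with earlier results of these data known. The authors' pipeline, per the study's methods, was Bowtie2 (mm9), Picard and MACS2. It dropped multimapping and discordant pairs and PCR duplicates, and peak calling used input as control at q 0.01. Tool versions are not given in the sources used here. For H3K4me3 and H3K27Ac the authors kept peaks of 2 technical replicates at an irreproducible discovery rate below 0.05, and each deposited peak carries a score from each library, whose MACS2 column is not stated. Which score belongs to which replicate is not stated either. The deposited H3K9me3 domains have a score relative to input, and how those lists were made is not stated. The Oct4 lists, 1 per library, hold the fold enrichment over input and the −log10 q-value that the authors' MACS2 run gave. The unique-read rule can lower signal where exons have processed copies.

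From these lists, peaks touching 1000 bp on either side of the 5′ end of each GENCODE vM1 gene record were taken. For the histone marks the widest was used for width and score, and for Oct4 the peak of highest fold enrichment. Widths were compared as log2 ratios with a call at 1.5-fold, and library scores as percentiles among promoters with a peak in both genotypes, called where the genotypes did not overlap. No result comes from a test, because each histone mark has 1 list per genotype. The exact permutation test for Oct4 could not reach 0.05. The named genes were the 5 widest and 5 narrowest, the 5 largest rises and falls, those without H3K4me3, the highest H3K27Ac scores and Oct4 folds, all with H3K9me3, and 15 by role. Some genes that the rule names are not reported here, and counts and medians include them. Scripts were tested on simulated data and used Python 3.11.15, pandas 2.3.3, numpy 2.4.6, scipy 1.17.1 and matplotlib 3.10.9.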

Additional observations from a re-analysis of the deposited data

How the results depend on the processing

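No paired analysis was possible because no result comes from a test. Of 77 values under an alternative, over 22 summaries, 60 stayed close to the reported value, 14 moved and 3 reversed in sign. Merging peaks within 1000 bp raised the median H3K4me3 width from 4674 to 5104.5 bp in WT, and from 4048 to 4427 bp in Spen KO (3008 and 2294 bp over all promoters), and left 0 genes wider by 1.5-fold (0.974% of all promoters). Centred on the median of all promoters, the median log2 ratio of H3K4me3 width was 0.13 instead of -0.18, with 4 genes narrower and 5 wider (10.8% and 2.27% of all promoters). A call at a lower fold than 1.5 gave 23 narrower and 2 wider genes (48.6% and 1.81% of all promoters), and a fold of 2 gave 3 and 0 (8.09% and 0.242%). With a 2500 bp window, H3K9me3 touched 3 genes in WT and 2 in Spen KO (12% and 11.7% of all genes). Oct4 in Spen KO R2 was found at 2 genes with a 2500 bp window (3.13% of all genes) or all transcript starts (2.78%). It was found at 0 when the lists were cut to the shortest, of 1806 peaks (1.28% of all genes). Leaving out 1 Oct4 library at a time, the difference of means ran from -5 to 2, and it turned positive in 2 cases, at 2 when WT R1 was dropped and 0.5 when Spen KO R2 was. The cause of these shifts was not tested. Depth is unknown for all lists, so a missing peak says only that none was called.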
